A study of Mus musculus with 8 samples.

Results

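The regions described here are the NFATc2 binding sites of a murine dendritic cell (DC) line that held the consensus sequence of activator protein 1 (AP-1) at the summit of the peak. A peak was a member when the 7 bases TGACTCA, which read TGAGTCA on the opposite strand, stood wholly inside the window from 100 bp before to 100 bp after its summit, the position with the most tags. Of the 9438 NFATc2 peaks, 1595 were members (16.9%, 95% Wilson interval from 16.2 to 17.7%), and the other 7843 served as the comparison. The rule used the genome sequence and the summit, and none of the tag counts or H3K4me3 values given below. The cells were of the D1 line, which was established from C57BL/6 spleen and grows for long periods in culture. They carried, beside their own NFATc2, a lentiviral copy with a V5 tag at its C-terminus, and had been sorted for low GFP. For the NFATc2 ChIP-seq these cells received 10 μg/ml curdlan, a β-glucan that engages the receptor dectin-1, for 30 min, and chromatin was recovered with an anti-V5 antibody. H3K4me3, a histone mark of active promoters, was mapped in D1 cells that were non-treated (NT), that received 10 μg/ml curdlan for 2 h, or that received curdlan together with FK506, an inhibitor of calcineurin, for 2 h. The labels name the H3K4me3 cells only as D1 and give no FK506 dose for them. There was 1 ChIP library and 1 input library for each of the 4 conditions and no NFATc2 library from unstimulated cells is analysed here, so neither the spread between replicates nor the change of NFATc2 binding with curdlan could be measured. No p-values are therefore given, and intervals cover counting error only, with peaks and genes that are not replicates of a condition.

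The NFATc2 library had 14377535 ChIP tags, and the 3 H3K4me3 libraries had between 16662316 and 21289349. An H3K4me3 peak within 1 kb of a TSS was listed in NT, curdlan and curdlan with FK506 cells for 8 of 9 annotated dendritic and haematopoietic marker genes, among them Ptprc, Itgax, Cd74 and Irf8. Of the 10 such markers chosen, Flt3 and Spi1 had no value, 1 of them because its name was not in the annotation. Of 16 marker genes of T cells, B cells, fibroblasts, epithelium and hepatocytes, 1 (Cdh1) had such a peak.

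NFAT proteins are held in the cytoplasm by phosphorylation, and calcineurin releases them to the nucleus when calcium rises, which is the step that FK506 blocks. AP-1 is a dimer of Jun proteins with Fos, Batf or Atf proteins and is induced through MAP kinases. Both can bind side by side at composite elements, described at cytokine promoters such as that of Il2, in which the NFAT core GGAAA stands just upstream of an AP-1 sequence on the same strand.

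Among the members, the core GGAAAA and the AP-1 sequence were found in 1 arrangement more often than in any other, with the core upstream and 2 bases between. The 10 sites of this kind with the most NFATc2 tags are shown because the spacing result rests on them, each named by the nearest protein-coding gene, on mm9, 5′ to 3′ along the strand of the core, with the core and the AP-1 sequence in capitals.
Trpm3, chr19:22382710-22382740, plus strand: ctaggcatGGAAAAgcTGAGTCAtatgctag
Ddx28, chr8:108531257-108531287, minus strand: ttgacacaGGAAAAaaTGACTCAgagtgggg
Snx32, chr19:5512247-5512277, plus strand: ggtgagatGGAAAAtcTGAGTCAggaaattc
Apbb1ip, chr2:22605489-22605519, plus strand: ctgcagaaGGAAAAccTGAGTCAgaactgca
Ism1, chr2:139667288-139667318, plus strand: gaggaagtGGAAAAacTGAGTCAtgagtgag
Tnc, chr4:63754029-63754059, plus strand: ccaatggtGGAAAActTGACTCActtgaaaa
Gars, chr6:54989571-54989601, plus strand: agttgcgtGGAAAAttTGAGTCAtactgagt
Runx1, chr16:92748732-92748762, minus strand: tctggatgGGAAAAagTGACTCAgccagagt
Dpp6, chr5:27381239-27381269, minus strand: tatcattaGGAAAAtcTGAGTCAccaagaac
Ifnar2, chr16:91366739-91366769, plus strand: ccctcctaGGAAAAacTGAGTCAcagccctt

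A further set shows the AP-1 sequence at the strongest site and at members near genes named below, on the plus strand of mm9, with the AP-1 sequence in capitals. The site near Plau, the gene of urokinase, held 2 copies.
Snx8, chr5:140855251-140855305, plus strand: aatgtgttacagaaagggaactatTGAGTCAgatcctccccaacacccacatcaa
Hs3st2, chr7:128414989-128415043, plus strand: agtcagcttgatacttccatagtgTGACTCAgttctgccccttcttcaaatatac
Ccl24, chr5:136058403-136058449, plus strand: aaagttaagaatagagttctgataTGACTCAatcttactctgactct
Il1a, chr2:129146117-129146170, plus strand: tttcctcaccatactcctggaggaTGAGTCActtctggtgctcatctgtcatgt
Cxcl16, chr11:70260306-70260360, plus strand: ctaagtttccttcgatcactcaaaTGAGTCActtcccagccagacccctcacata
Cxcl2, chr5:91329888-91329938, plus strand: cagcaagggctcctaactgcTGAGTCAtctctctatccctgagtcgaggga
Tnfsf14, chr17:57333734-57333788, plus strand: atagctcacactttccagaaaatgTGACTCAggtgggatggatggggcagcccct
Atf3, chr1:193017655-193017709, plus strand: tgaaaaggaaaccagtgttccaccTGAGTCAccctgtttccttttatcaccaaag
Egr3, chr14:70456959-70457013, plus strand: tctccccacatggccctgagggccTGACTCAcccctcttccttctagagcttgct
Cd86, chr16:36598297-36598351, plus strand: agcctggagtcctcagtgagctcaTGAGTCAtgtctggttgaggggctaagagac
Plau, chr14:21630682-21630736, plus strand: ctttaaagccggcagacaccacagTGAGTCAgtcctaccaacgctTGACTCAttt
Mmp13, chr9:7261873-7261927, plus strand: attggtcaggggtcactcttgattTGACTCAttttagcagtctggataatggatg
Hmox1, chr8:77613627-77613681, plus strand: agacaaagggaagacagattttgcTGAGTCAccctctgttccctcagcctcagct

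The AP-1 sequence was concentrated at the NFATc2 summits. Windows of the same length placed 1 kb to each side of the summits held it in 698 of 18876 cases (3.70%, from 3.44 to 3.98%), so the share at summits was 4.57 times as high. It stood in 2.69% of 86803 windows centred on annotated TSSs and in 3.12% of 12714857 windows tiled over the genome. The count per 20 bp bin was 270 at the summit against a mean of 37.3 in bins 800 to 1000 bp away, a ratio of 7.24, and the core GGAAAA rose from 198 to 970, a ratio of 4.89. At 200 bp the AP-1 count had fallen to 48 per bin. In the members the middle of the nearest AP-1 sequence was a median of 33 bp from the summit, with quartiles of 15 and 59 bp. Most members held 1 copy (1460), while 121 held 2, 12 held 3 and 2 held 4. The share of peaks that were members lay between 13.2 and 20.5% on the 20 chromosomes, with the lowest on X and the highest on chromosome 5. No 2 members shared the 31 bases centred on the AP-1 sequence, and 2 members had their summits within 1 kb of each other.

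**Figure D1:**
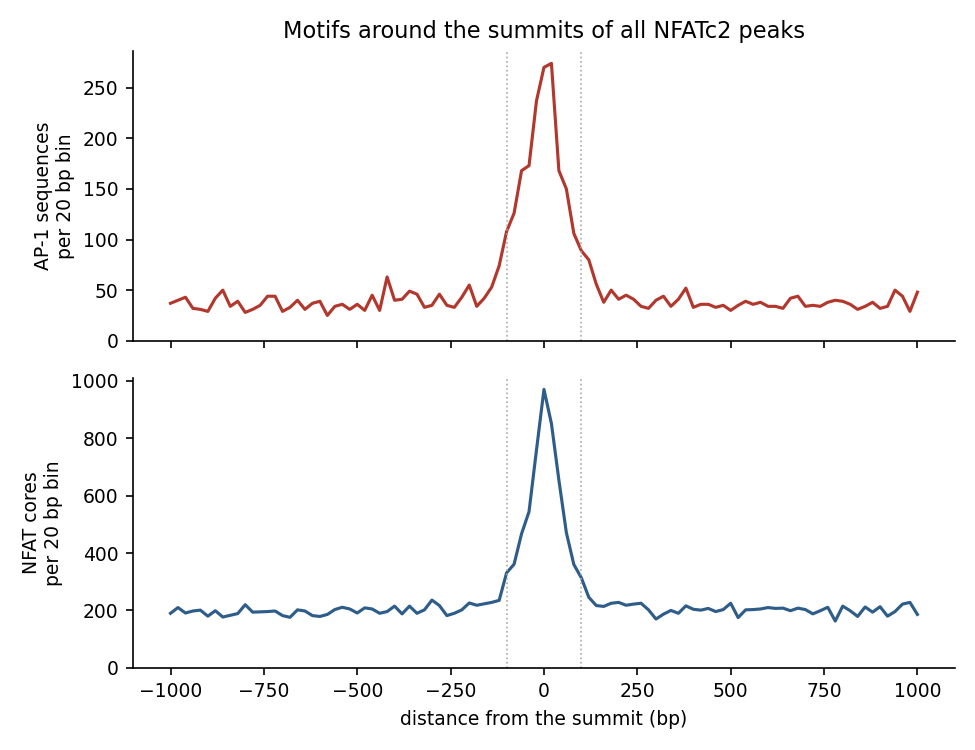
Counts of the AP-1 sequence (upper panel) and of the NFAT core GGAAAA on either strand (lower panel) per 20 bp bin, against the distance in bp from the summits of all 9438 NFATc2 peaks; dotted lines mark 100 bp. Both reach their maximum at or next to the summit, 270 and 970 in the central bin, and are level from 200 to 300 bp outwards.

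The limit of 100 bp cut through the flank of this distribution. The 82 members with the sequence 88 to 97 bp from the summit had a median of 77.5 tags, and the 73 non-members that had it just outside, at most 10 bp farther, had 74. The core GGAAAA was present in 39.0 and 50.7% of these peaks, and an H3K4me3 peak of the curdlan list covered 20.7 and 24.7%.

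The core GGAAAA stood in the windows of 591 of the 1595 members (37.1%, from 34.7 to 39.5%) and in 47.4% of the other peaks, a difference of -10.3 percentage points (95% Newcombe interval from -12.9 to -7.66). In windows 1 kb from members' summits it was present in 17.5%, so it was also more frequent at members than beside them. The remaining 1004 members held the AP-1 sequence and no GGAAAA. Windows with GGAAAA had a lower median GC content than those without, 45.3 against 48.3% in members and 44.3 against 46.8% in other peaks. Members had the higher median GC content, 47.3 against 45.8%. The part of GC content in the lower share of GGAAAA was not tested. Where both were present, the core was the nearer to the summit in 321 peaks and the AP-1 sequence in 270 (45.7%, from 41.7 to 49.7%), at median distances of 29.5 and 35 bp.

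The distance between the motifs was not even. In the 591 members with both there were 774 pairs, and 20 of them, in 20 peaks, had the AP-1 sequence starting 8 bp after the start of the core, which leaves 2 bases between. Over the other 89 distances within about 50 bp the median was 4 pairs and the highest count was 12, for AP-1 sequences starting 36 bp before the core. The neighbouring distances of 7 and 9 bp had 8 and 2 pairs. In the windows beside the summits there were 128 pairs, and 0 at 8 bp. With so few pairs the count there was also 0 at many other distances, such as 7 and 12 bp, so this 0 carries little weight. Over all distances up to about 50 bp, 182 pairs had the core upstream and 200 had it downstream. The distance was picked as the most frequent of those counted, and no test was made of it.

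**Figure D2:**
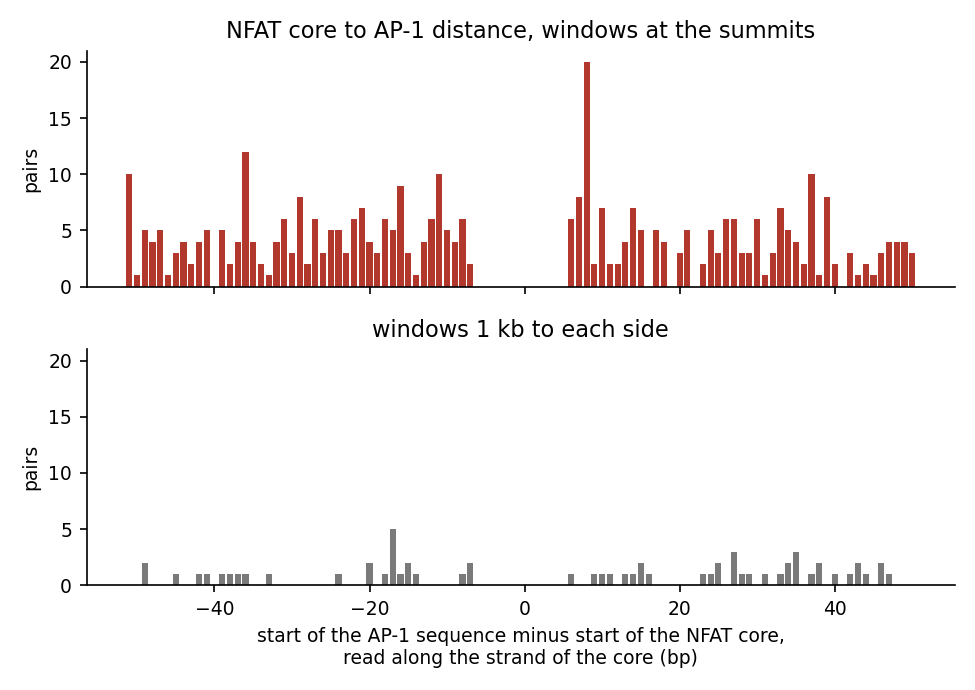
Number of pairs of the NFAT core GGAAAA and the AP-1 sequence (y axis) by the start of the AP-1 sequence minus the start of the core in bp (x axis, positive where the core is upstream), in windows at the summits (top) and 1 kb to each side (bottom). The bar of 20 pairs at 8 bp stands above all others, of which the highest holds 12. The lower panel has few pairs at any distance, and none at 8 bp or at many others.

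The shorter core GGAAA gave the same distance, with 60 pairs in 60 peaks at 8 bp. These included the 20 above, because every GGAAAA holds a GGAAA with the same start. The median was 12 and the highest count 26 over the other distances, and 30 where the shorter core directly abutted the AP-1 sequence. Read along the core, the AP-1 sequence was TGAGTCA in 13 and TGACTCA in 7 of the 20 pairs, and in 36 and 24 of the 60. The 20 sites with GGAAAA at this distance were of ordinary strength, with a median of 67 tags and a range from 17 to 262, and 10 of them lay above the median of all peaks. Of these 20 sites, 12 were in introns and 8 were intergenic, 1 lay within 1 kb of a TSS, and 3 were covered by H3K4me3 in each of the 3 lists. Of all members, 46.1% were in introns, 49.3% were intergenic and 10.1% lay within 1 kb of a TSS. H3K4me3 covered 20.4% of all members in NT, 19.9% with curdlan and 19.2% with FK506 added.

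The strongest composite site had 262 tags and a fold enrichment of 41.4 over the local background, and lay in an intron at -140014 bp from the TSS of Trpm3 (negative positions are upstream of the TSS), which encodes a cation channel. The site near Ddx28, an RNA helicase gene, had 154 tags and the site near Snx32, a sorting nexin gene, had 151. The latter lay at -1770 bp from the Snx32 TSS and was covered by H3K4me3 in all 3 lists. So was the site 1594 bp inside Gars, the glycyl-tRNA synthetase gene, which had 93 tags. The sites near Apbb1ip, which encodes an adaptor of integrin activation, and near Ism1 had 143 and 126 tags. Tnc, the gene of tenascin C, had its composite site at -72312 bp from its TSS with 105 tags. Runx1, a haematopoietic transcription factor gene, had one with 83 tags, in an intron and at -51116 bp from the nearest of its annotated TSSs. Ifnar2, which encodes a subunit of the type I interferon receptor, had one at -6214 bp with 73 tags. The site near Dpp6 had 78 tags. No H3K4me3 peak covered the sites of Trpm3, Ddx28, Apbb1ip, Ism1, Tnc, Runx1, Ifnar2 or Dpp6 in any list.

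Members were slightly stronger NFATc2 peaks than the rest. Their median was 68 tags (quartiles 44 and 109.5, range from 17 to 561) against 63 (40 and 103, range from 14 to 1007), and the median fold enrichment was 14.1 against 13.2. Of the members, 53.7% had more tags than the median peak of the whole list, against 49.2% of the others, a difference of 4.50 percentage points (from 1.81 to 7.18). By fold enrichment the difference was 6.41 points (from 3.72 to 9.07). The distributions overlapped over nearly their whole range, and 17 members (1.07%) and 78 other peaks (0.995%) were in the top 1% by tags. When only peaks at 1e-10 or below were kept, the difference in tags was 0.43 points (from -3.23 to 4.10), and with a window of 50 bp it was 2.20 points (from -1.04 to 5.42).

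The share of members rose from 14.5% in the lowest of 4 groups of peaks ordered by tags (from 13.1 to 15.9%) through 16.8 and 17.8% to 18.5% in the highest (from 17.0 to 20.2%). The share with GGAAAA was 47.1, 45.3, 44.0 and 46.1% over the same groups. Members with GGAAAA had a median of 69 tags (interval from 63 to 73) and those without had 68 (from 64 to 72), while peaks with GGAAAA and no AP-1 sequence had 62 (from 60 to 64) and peaks with neither had 63 (from 62 to 65). Split by the distance to the nearest TSS, the difference was clearest at 1 to 10 kb, where members had a median of 72 tags against 62, and 57.6% of them were above the median of the list against 48.3%. Within 1 kb of a TSS the medians were 66 and 65 tags, and the difference was -0.44 points (from -8.65 to 7.67). In 5 classes of GC content, from lowest to highest, the differences were 4.97, -1.68, 4.18, 8.12 and 2.74 points. Only that of 8.12 points had an interval that did not hold 0 (from 2.45 to 13.6).

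**Figure D3:**
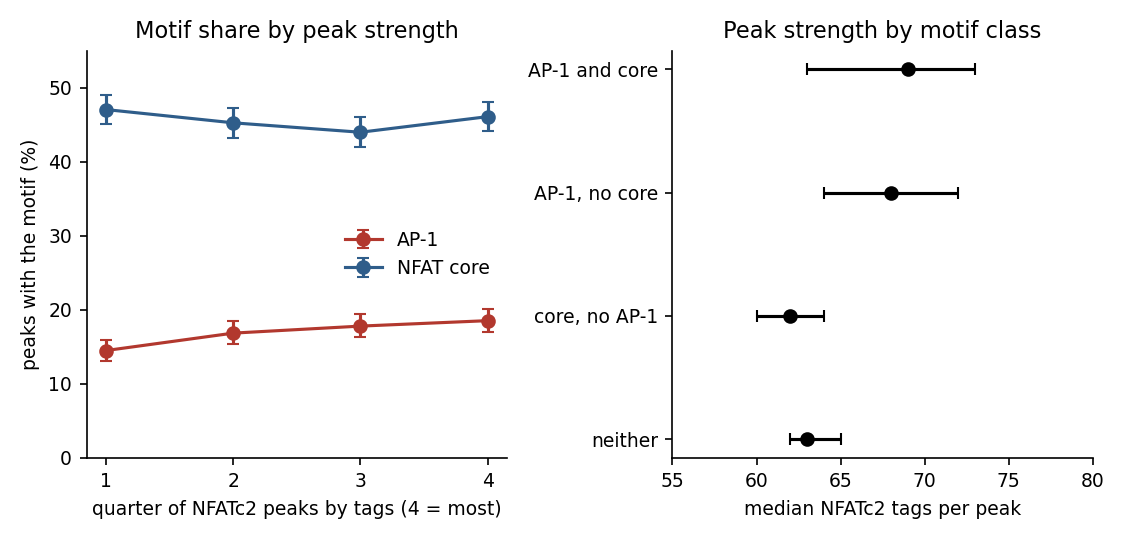
Left, share of NFATc2 peaks with the AP-1 sequence or the NFAT core (y axis, percent, 95% Wilson intervals) in 4 groups of peaks ordered by tags (x axis). Right, median NFATc2 tags per peak with its 95% order-statistic interval for 4 classes of peaks by motif, on an axis that starts at 55 tags. The AP-1 share goes from 14.5 to 18.5% and both classes with the AP-1 sequence have medians of 68 and 69 tags, against 62 and 63 without it.

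The 20 members with the most tags had between 337 and 561 tags and fold enrichments between 12.2 and 70.8. The strongest was in an intron of Snx8, which encodes an endosomal sorting nexin, 3421 bp inside the gene, with 561 tags and a p-value of 1.1e-68 in the authors' list. A site in an intron of Cux1, a homeobox transcription factor gene, had 557 tags and 2 AP-1 sequences. A site in Srgn, the gene of the granule proteoglycan serglycin, had 518 tags at 1333 bp from the TSS. The site at -9436 bp from Ccl24, an eosinophil-attracting chemokine, had 438 tags. The highest fold enrichment of the 20 was 70.8, at 418 tags, at -120298 bp from Hs3st2, which encodes a heparan sulfate sulfotransferase. Further members of the 20 were an intergenic site at -10362 bp from Il1a with 373 tags, a site at -20223 bp from Egr3 with 378, and sites inside Cdk14, Rassf5 and Txk, a Tec family kinase gene, with 396, 391 and 353. The site of Cdk14 was the one of the 20 that lay within 1 kb of a TSS. Of the 20, 12 had GGAAAA, against 37.1% of all members. More than 1 AP-1 sequence was held by 4, while 1460 of all 1595 members held 1 copy. H3K4me3 covered 8 of the 20 with curdlan, 7 in NT and 7 when FK506 was added, among them that of Srgn in all 3. Of all NFATc2 peaks 24.9, 25.4 and 24.1% were covered, in the same order, and of all members 19.9, 20.4 and 19.2%. Each of the 20 peaks was longer than the upper quartile of members, 1431.5 bp, and an overlap of 1 bp counted as cover. The part of peak length in these shares was not tested. The sites near Snx8, Ccl24, Hs3st2, Il1a and Egr3 were covered in none.

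Members lay farther from promoters. A TSS was within 1 kb of the summit for 161 members (10.1%, from 8.71 to 11.7%) and for 14.4% of the other peaks, a difference of -4.28 percentage points (from -5.87 to -2.53). The difference was -4.29 points when only protein-coding genes were used. At 10 to 100 kb the order was the other way, 50.8% against 45.8%, and the median distance to a TSS was 13.4 kb against 10.7 kb. Introns held 46.1% of members and 47.9% of the others (difference from -4.52 to 0.84 points), exons 4.64 and 5.65%, and intergenic sequence 49.3 and 46.4%. The windows of members had a median GC content of 47.3% against 45.8%, with a median of 2 CpG in both.

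Fewer members than other peaks were covered by H3K4me3, in every condition. In NT cells 325 members overlapped an H3K4me3 peak by at least 1 bp (20.4%, from 18.5 to 22.4%), where 25.4% of all NFATc2 peaks did so. With curdlan it was 317 (19.9%, from 18.0 to 21.9%), against 24.9% of all peaks. With curdlan and FK506 it was 306 (19.2%, from 17.3 to 21.2%), against 24.1%. The differences from peaks without the AP-1 sequence were -6.0, -6.0 and -5.93 percentage points, with intervals from -8.15 to -3.74, from -8.12 to -3.75 and from -8.03 to -3.71. Weighted to the same classes of TSS distance the differences were -2.83, -2.75 and -2.69 points, and weighted to the same 5 classes of GC content they were -8.01, -7.92 and -7.91 points.

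The difference was widest close to promoters. Within 1 kb of a TSS, 102 of 161 members were covered in NT (63.4%, from 55.7 to 70.4%) against 78.1% of the other peaks, a difference of -14.7 points (from -22.7 to -7.25). With curdlan the shares there were 67.7 and 78.0%, and with FK506 66.5 and 77.7%. At 1 to 10 kb the differences were -4.00 points in NT (from -7.87 to 0.21), -4.41 with curdlan (from -8.29 to -0.20) and -3.14 with FK506 (from -6.99 to 1.06). Between 10 and 100 kb the shares were 11.9 and 11.8% in NT, 9.75 and 10.5% with curdlan and 9.38 and 10.1% with FK506, differences whose intervals all held 0. All 3 lists covered 259 members (16.2%, 21.5% of all peaks), and no list covered 1216 (76.2%, 71.6% of all peaks).

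**Figure D4:**
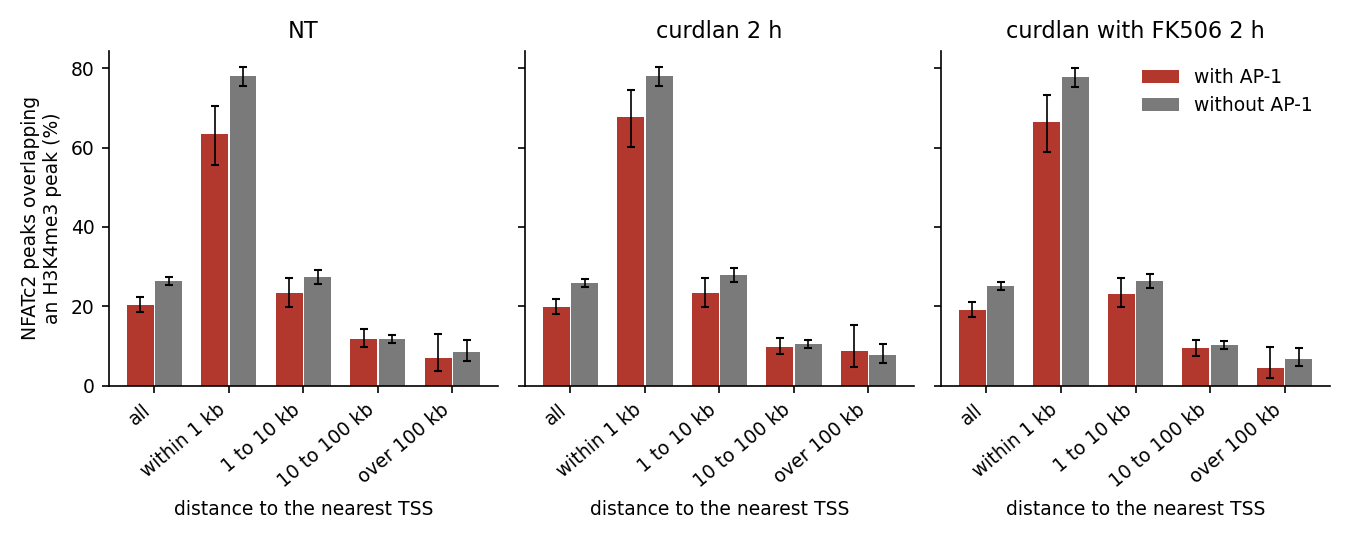
Share of NFATc2 peaks that overlap an H3K4me3 peak (y axis, percent, bars with 95% Wilson intervals) in the NT, curdlan and FK506 conditions, for all peaks and by distance to the nearest TSS, with and without the AP-1 sequence. Within 1 kb the shares with the sequence are 63.4, 67.7 and 66.5%, below 78.1, 78.0 and 77.7% without it, and at 10 to 100 kb they lie within 1 point of each other.

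Few sites gained or lost cover with stimulation, among members and among other peaks. Curdlan covered 43 members that NT did not (2.70%, from 2.01 to 3.61%), where 2.36% of all peaks were of this kind, and the difference from other peaks was 0.40 points (from -0.37 to 1.37). Of the 43, 21 were not covered with FK506 (1.32%, against 1.25% of all peaks) and 22 were (1.38%, against 1.11%). In the other direction NT covered 51 members that curdlan did not (3.20%, against 2.87% of all peaks), and 14 of these were covered with FK506 (0.878%, against 0.858%). Within 1 kb of a TSS the share gained was 5.59% of members (9 of 161, from 2.97 to 10.3%) and 1.51% of other peaks (17 of 1127, from 0.94 to 2.40%), a difference of 4.08 points (from 1.31 to 8.81), which was the one class of distance whose interval did not hold 0. These shares also count sites already covered in NT, which could not gain cover, 63.4% of members and 78.1% of other peaks in this class. The part of this in the difference was not tested.

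For 17 of the 43 members with gained cover (39.5%) the H3K4me3 peak over the site also overlapped a peak of the NT list. Among all 223 NFATc2 peaks with gained cover the share was 40.8%. For the other 26 members the H3K4me3 peak overlapped none. The curdlan library had more tags than the NT library, and its part in the extent of the called peaks was not tested. The 10 with the most H3K4me3 tags were all of the first kind. They included the site in an exon of Nr4a3, an orphan nuclear receptor gene. The curdlan peak there had 4510 tags and the FK506 peak 3123, at fold enrichments of 93.4 and 79.6. Others stood near Ctsz, Fth1 (ferritin heavy chain), Sh3bp2, Cltc (clathrin heavy chain), Osgin2 and Mgat4b, with between 2188 and 3375 tags. The site near Egr1, a zinc finger factor gene of the immediate early response, had 2367 tags, and 982 with FK506. The site in AI607873 was covered by a curdlan peak of 1492 tags and fold enrichment 126, and by an FK506 peak of 78 tags and fold enrichment 10.5. The tags are not adjusted for library depth or peak length. Log2 ratios of fold enrichment, curdlan over FK506, were therefore centred on the median over all shared H3K4me3 peaks. They were -0.05 at Nr4a3 and 0.19 near Egr1. Over the 8 of the 10 covered in both lists they ran from -0.64 at Cltc to 3.30 at AI607873. Of the 10, those near Ctsz and Dusp22 were not covered with FK506. Among the 26 without an NT peak, the 2 with the most tags, singled out after their values were seen, were another site near Tnc, at -63451 bp, with 1053 tags (218 with FK506) and the site at -152 bp from Tnfsf14 with 923 tags (197 with FK506).

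Where a site had the mark in both conditions, its median change was close to that of all H3K4me3 peaks. The change was taken as the log2 ratio of fold enrichment between the peaks of 2 lists, centred on the median over all H3K4me3 peaks that both lists share, which was 0.71 for curdlan against NT and 0.28 for curdlan against curdlan with FK506. The median change at 274 members was -0.05 for curdlan against NT (interval from -0.09 to 0.01), and -0.02 at 1849 other sites. A rise past 2-fold was seen at 15 members (5.47%, from 3.35 to 8.83%), where 4.19% of all sites with a mark in both lists had one, and a fall past 2-fold at 13 (4.74%, against 4.1% of all sites). For curdlan against curdlan with FK506 the median was 0.02 at 281 members (interval from -0.05 to 0.10) and 0.00 at the others. The mark was higher past 2-fold with curdlan alone at 14 members (4.98%, against 3.71% of all sites) and lower at 6 (2.14%, against 3.19%). For curdlan with FK506 against NT it was higher at 9 of 273 members (3.30%, against 3.65%) and lower at 10 (3.66%, against 3.89%). The intervals of all 6 differences from other peaks held 0. The comparisons share libraries pairwise, and with 1 library each the 2-fold limit is a size and not a test.

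Of 7 further motifs, 1 differed from the other peaks with an interval that did not hold 0. The PU.1/ETS sequence GAGGAAG stood in 19.8% of members and 20.4% of other peaks, against 7.52% of windows beside members. The RUNX sequence TGTGGT stood in 26.9 and 28.7%, against 16.6% beside members. Both belong to factors that shape myeloid cells. The IRF sequence, GAAA repeated after 2 bases, was the exception and was less frequent in members, 5.14% against 6.77% (difference -1.63 points, from -2.77 to -0.32), and 2.85% beside them. The NF-kB consensus was in 4.20 and 3.32%, the C/EBP sequence TTGCNNCAA in 1.57 and 1.94%, the cAMP response sequence TGACGTC in 0.815 and 1.03%, and the E-box CACGTG in 3.57 and 3.28%, differences whose intervals held 0. All were read on both strands, and both the PU.1/ETS and the IRF sequences can share bases with GGAAAA, which was itself less frequent in members. The bases beside the AP-1 sequence differed from those in the flanks. An A to its left or a T to its right, which lengthen its palindrome, were both present at 136 of 1738 copies (7.83%, from 6.65 to 9.18%) and at 4.10% of 708 copies in windows 1 kb away (from 2.87 to 5.82%), and neither was present at 48.2 and 58.9%.

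A gene was counted as having a member when the summit lay within 30 kb of a TSS. Of 9125 genes with any NFATc2 site in reach, 2144 had a member, 23.5%. The share followed the number of sites, with 16.1% of genes with 1 site, 29.5% of those with 2 and 43.1% of those with 3. Over 10 lists of immune and signalling genes the share ran from 12.5 to 44.4%, and the 95% interval of each of the 10 held 23.5%. The cytokine and chemokine lists were selected by the study on these samples and are not independent evidence.

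Among cytokine genes, 4 of 17 with a site had a member (23.5%). Il1a, which encodes the alarmin IL-1α, had the strongest, with the 373 tags given above and 3 further NFATc2 sites in reach that were not members. Tnfsf9, the ligand of 4-1BB, had 205 tags at 3591 bp downstream of its TSS, Tnfsf14 (LIGHT) had 73 tags at -152 bp, and Il17d had 63 tags at 1391 bp downstream. Among chemokine genes it was 7 of 17 (41.2%, from 21.6 to 64.0%). The 7 included neighbouring genes counted through the same site, of 41 tags, so they are not separate counts. The members of Ccl24 and of Cxcl16, a chemokine that is also a scavenger receptor, were the strongest. Cxcl16 had 2, with 294 tags at 12611 bp downstream and 139 tags at -8041 bp from its TSS. Ccl1 had 104 tags at -24091 bp, and Cxcl2, a neutrophil chemokine, had 72 tags at -2909 bp. Only the sites of Tnfsf9, Tnfsf14 and Il17d among these were covered by H3K4me3 in the curdlan list.

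Genes of AP-1 subunits themselves had a member in 3 of 7 cases (42.9%). Batf2 had 2, of 245 and 35 tags, Atf3 had 1 of 154 tags at -10529 bp, and Jdp2, an AP-1 repressor, had 1 of 42 tags. The immediate early Egr and Nr4a genes had one in 3 of 8 cases (37.5%). Egr3 had 2, of 378 and 53 tags, Nr4a3 had 1 of 91 tags at 940 bp from its TSS in an exon, and Egr1 had 1 of 81 tags at 4125 bp. Known AP-1 targets had one in 4 of 9 cases (44.4%, from 18.9 to 73.3%). Plau had 133 tags, Mmp13 (collagenase 3) had 75 at -10657 bp, and Mmp9 (gelatinase B) had 61. The member counted for Mmp9 lay in an intron of its neighbour Slc12a5 and was one of the 20 composite sites. Hmox1, the haem oxygenase 1 gene, had 55 tags at -3863 bp. Distal enhancers of this gene are known to hold antioxidant response elements that contain the AP-1 sequence.

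Of calcineurin and NFAT genes, 2 of 11 had a member (18.2%), Homer2 with 52 tags and Ppp3r1, the regulatory subunit of calcineurin, with 37. Of dectin-1 signalling genes it was 1 of 5, Vav1, a guanine nucleotide exchange factor, with 147 tags. Of MAP kinase feedback genes it was 1 of 8, the phosphatase gene Dusp1, with 106 tags at -22499 bp. Of NF-kB subunits and inhibitors it was 2 of 9 (22.2%), and both encode A20-binding inhibitors, Tnip3 with 195 tags at -273 bp from its TSS and Tnip1 with 55 tags and 2 AP-1 sequences. Of DC maturation genes it was 2 of 11 (18.2%), the costimulatory ligand genes Icosl with 112 tags and Cd86 with 65. Cd86 had 8 NFATc2 sites in reach, of which 1 was a member.

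At the starts of these genes H3K4me3 was often present in all conditions. Of the 26 genes named from the lists, 22 had a peak within 1 kb of a TSS in at least 1 list, and Ccl24, Homer2, Mmp9 and Mmp13 had none. Il1a, Ccl1 and Tnfsf14 had one in both curdlan conditions and none in NT. Among list genes with a mark in at least 1 condition, this pattern was found at 3 of 23 with a member (13.0%, from 4.54 to 32.1%) and at 2 of 58 with NFATc2 sites but no member, Il23a and Tnfsf15 (3.45%, from 0.95 to 11.7%), and at 0.691% of all genes with a mark. The list genes with this pattern were all on the study's cytokine and chemokine lists, which were selected on these samples. Their shares are therefore not independent evidence. Over all genes the pattern was found at 11 of 1335 with a member (0.82%, from 0.46 to 1.47%) and 40 of 4313 with sites but no member (0.93%, from 0.68 to 1.26%). Tnfsf14 had a fold enrichment of 71.3 with curdlan and 12.6 with FK506, a centred log2 ratio of 2.23. Among 22 genes with a mark in both of these lists it was the 1 past 2-fold, where 3.83% of all genes were higher by as much and 3.33% lower. Il1a had 17.5 and 22.2. Atf3 had 20.6 in NT, 74.5 with curdlan and 47.1 with FK506, and its centred log2 ratio of 1.12 for curdlan against NT was the 1 of 19 past 2-fold, where 3.85% of all genes were higher and 3.65% lower. Cd86 had 30.0, 89.1 and 72.8 in the same order, a ratio of 0.84, and Cxcl2 had 10.6, 31.1 and 19.4, a ratio of 0.83. Jdp2 had 72.5, 61.6 and 66.7, a ratio of -0.96. Of the 19, 10 lay above 0, with a median of 0.01.

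**Figure D5:**
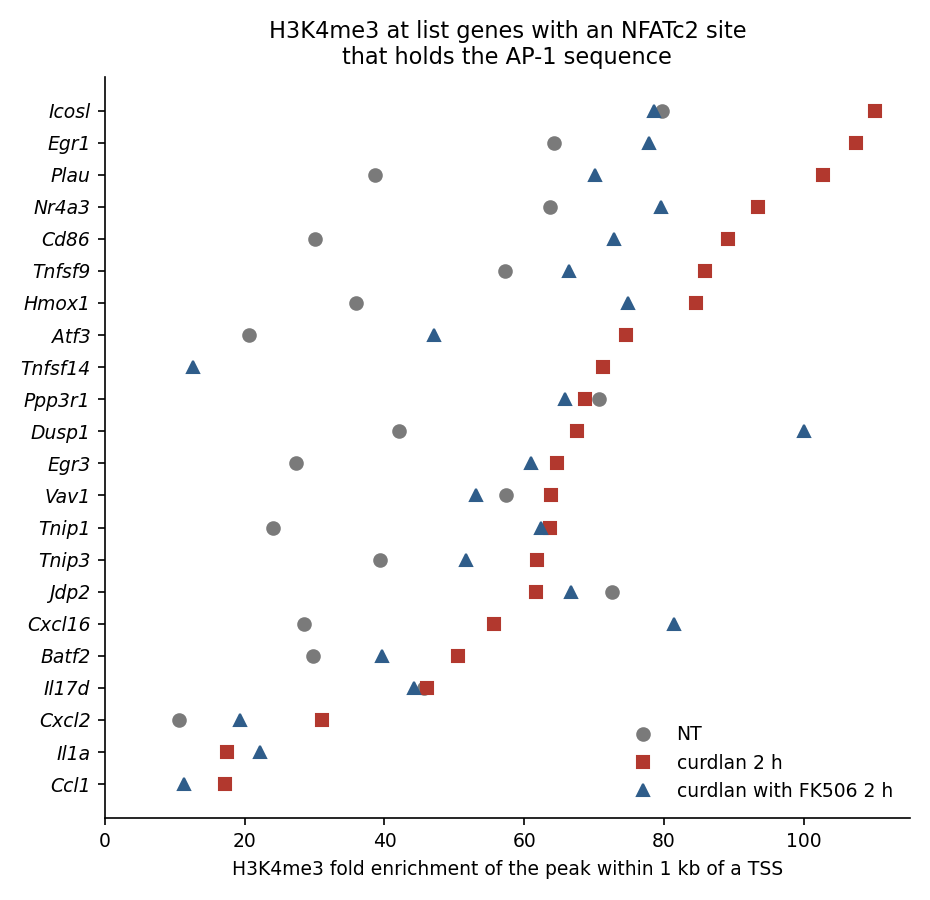
H3K4me3 fold enrichment (x axis, ratio over the local input background) of the peak within 1 kb of a TSS, in the NT, curdlan and FK506 conditions, for 22 list genes with a member within 30 kb (y axis). A missing symbol means that no peak was listed. Tnfsf14 goes from no peak in NT to 71.3 with curdlan and 12.6 with FK506, and Icosl has the highest curdlan value, 110.

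The share of genes with a changed mark was compared between genes with and without a member in reach. For curdlan against NT, 42 of 1288 genes with a member were higher past 2-fold (3.26%, from 2.42 to 4.38%), against 3.54% of 4206 genes with NFATc2 sites but no member and 4.16% of 6726 genes with no site. The difference between the first groups was -0.28 points (from -1.31 to 0.95). The mark was lower past 2-fold at 30 genes with a member (2.33%, from 1.64 to 3.31%), against 3.16% of those with sites but no member (difference from -1.73 to 0.26 points), 4.21% of those with no site and 3.65% of all genes. Among genes with exactly 1 site the share higher was 4.02% of 497 with a member and 3.64% of 2751 without (difference from -1.21 to 2.59 points). For curdlan against curdlan with FK506 it was 40 of 1294 (3.09%) with a member and 3.58% of 4221 without (difference from -1.50 to 0.72 points), and 40 with a member were lower (3.09%, against 3.33% of all genes). Among genes with 1 site, 2.64% of 493 with a member were higher against 3.95% of 2757 without (difference from -2.66 to 0.62 points), and 4.26% were lower against 2.65% (difference 1.61 points, from 0.01 to 3.84). For curdlan with FK506 against NT, 37 of 1295 genes with a member were higher (2.86%, against 3.27% of all genes) and 40 lower (3.09%, against 3.23%). The median changes of genes with a member were -0.03 for curdlan against NT and -0.02 for curdlan against curdlan with FK506.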

How the data were processed

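Reads were mapped to mm9 with bowtie by the authors, who kept at most 1 tag per position and called peaks in each library on its own by MACS, with the matching input as background (the headers give 1.4.2 and 1e-05 as the highest p-value). The deposited lists hold the count of tags per peak, which is not normalized, 10 times −log10 p, the ratio of tags to the local background (fold enrichment) and the FDR in percent. A window of 100 bp on each side of each summit was read from NCBI mouse build 37 and searched on both strands. Genes came from the Ensembl release 65 annotation, where a distance is to the nearest TSS of any transcript and introns and exons are those of any gene. Shares have Wilson, differences Newcombe and medians order-statistic intervals (95%). With 1 library per condition no p-value was computed.

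The NFATc2 list came from 14377535 ChIP tags, and its depth limits the precision of each count. The members and gene lists were chosen with earlier results of these data known. Genes were named as the nearest genes of the 20 members with the most tags, up to 4 genes per list by tags, the 10 strongest composite sites and the 10 members with the most H3K4me3 tags among those covered with curdlan and not in NT. Alternatives for window, p-value, FDR, overlap, annotation and gene distance were recomputed, and weighting by TSS distance or GC was added after the data were seen. The functions passed 9 of 9 tests on simulated data. The software was scipy 1.17.1, pandas 2.3.3, matplotlib 3.10.9 and numpy 2.4.6 under Python 3.11.15.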

Additional observations from a re-analysis of the deposited data

How the results depend on the processing

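The results were recomputed under 77 alternatives in all, over 19 results. Of the values, 63 stayed within the margin set for them, and 5 took the other sign, all of results whose interval held 0. With tags per kb of peak in place of fold enrichment, the difference in the share of genes higher past 2-fold was 0.17 points for curdlan against NT, 0.09 for curdlan against curdlan with FK506 and -0.29 for curdlan against NT at genes with 1 site. With the 50 bp window the difference in introns was 0.38 points, and with H3K4me3 peaks at 1e-10 or below the members' median log2 change against FK506 was -0.0011. With the window narrowed to 50 bp the number of members was 1028 (10.9% of peaks), and with 250 bp they were 23.3% of peaks. With 250 bp the difference in the share with GGAAAA was -6.56 percentage points. When only NFATc2 peaks at 1e-10 or below were kept, there were 873 members (18.3%), 11 pairs at the most frequent distance between the motifs, and a difference in the share above the median tag count of 0.43 points. The core GGAAA gave 60 pairs at that distance, the 20 with GGAAAA among them. Weighting to the same TSS distance classes, added after the data were seen, moved the H3K4me3 differences to -2.83 points in NT, -2.75 with curdlan alone and -2.69 with FK506 added. Within 10 kb of a TSS, 18.3% of genes with a site had a member, and within 100 kb 33.7% did. Apart from these constructions the causes were not tested. No paired analysis was possible because each condition had 1 library, and no replicate could be left out. The median of 63 tags per NFATc2 peak limits how finely strength can be ranked, and cover by a peak depends on the peak threshold in each H3K4me3 library.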

Other observations

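Peaks outside the rule were searched for AP-1 sequences with 1 base changed, after the spacing among members was known. In the 7843 NFATc2 peaks without the exact sequence, GGAAAA and such a sequence stood at the same distance, 8 bp from start to start with the core upstream, in 98 pairs in 98 peaks. This was again the distance with the most pairs, against a median of 15 and a highest count of 32 over the other 89 distances. In the windows 1 kb to each side there were 13 pairs at 8 bp, with a median of 7 and a highest count of 17 elsewhere. The most frequent of the changed sequences at this distance were TGACACA with 7 pairs, and AGAGTCA and TGAATCA with 6 each.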
